A study of Mus musculus with 6 samples.

Results

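The 10 genes of transforming growth factor beta (TGF-beta) and bone morphogenetic protein (BMP) signalling described here in mouse bone marrow are the ligand Tgfb1, the receptors Tgfbr1, Tgfbr2, Bmpr1a and Bmpr2, and the Smads Smad1, Smad2, Smad3, Smad4 and Smad7. They are 10 of the 18193 genes that the array's annotation names, and they were measured by 30 of the 34945 probe sets that carry exactly 1 gene symbol. The genes were chosen by name, with earlier results of this same comparison known. Their differences between the groups are therefore given as a description without p-values, and the counts of members past a threshold support nothing about the pathway as a whole.

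The samples were 3 arrays of ASXL1-MT marrow and 3 of mock marrow, from mice that had received a transplant. ASXL1-MT mice were transplanted with cells named ASXL1-MT, read here as mutant ASXL1, and had a disease resembling myelodysplastic syndrome, in which marrow makes too few normal blood cells. ASXL1 is a chromatin regulator that is often truncated in human myeloid disease. Mock mice were the normal controls, and the labels do not say what their cells carried. The age and strain of the mice, the construct behind the mutant, and whether a sample was 1 mouse or a pool are not given in the sources used here. Per the series text, marrow of both groups was depleted of cells bearing TER-119, B220 or CD3e, which mark red cell precursors, B cells and T cells. The source label names that depletion for mock alone, and both groups are labelled as myeloid marrow cells. Nothing says that replicates were separate animals, so SEs and p-values cover no more than the scatter of these arrays, which may be technical.

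TGF-beta and BMP ligands bind pairs of membrane kinases. A type II receptor phosphorylates a type I receptor, which phosphorylates receptor-regulated Smads: Smad2 and Smad3 after TGF-beta, Smad1 and its relatives after BMP. These join the common Smad4 and enter the nucleus, while the inhibitory Smad7 blocks the receptors and is itself induced by the pathway. In marrow, TGF-beta is known for holding blood stem cells in quiescence, and BMP signals act in early blood formation.

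Each value below is a log2 signal relative to the median of its probe set over the 6 arrays, so a probe set's values run around 0 and carry no absolute level. The 2 middle arrays of a probe set lie at equal distances above and below 0. A difference is the mean of ASXL1-MT less that of mock on the log2 scale, with its SE from limma, and folds hold only if the deposited logs have base 2. A probe set is called bright when the rounding of its 3 highest values marks a signal of 256 or more, if the base is 2. Where the groups do not overlap, those 3 values all belong to the higher group. Bright then says nothing of the signal level in the lower group. Of the members' 30 probe sets, 16 were bright. Over the whole table bright probe sets had a median SD of 0.18 within groups and the others 0.81, so the others are less precise. The depth of an array cannot be counted, and the number of arrays limits the precision.

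Bmpr1a, a type I receptor for BMP ligands, was the member with the largest difference, with a log2 difference of -4.07 (SE 0.51, 3 arrays a group), lower in ASXL1-MT marrow. Smad1, which carries the BMP signal from that receptor to the nucleus, lay in the opposite direction, higher by 0.93 (SE 0.13). Smad7 was higher by 0.73 (SE 0.21) and Tgfb1 by 0.36 (SE 0.13), and in both every ASXL1-MT array was above every mock array. Tgfbr2 was lower on 2 of its 3 probe sets, including its bright one. The gene values of Tgfbr2, Tgfbr1, Bmpr2, Smad2, Smad3 and Smad4 overlapped between the groups.

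Counted over the members, 2 of 30 probe sets were higher and 4 lower past an adjusted p of 0.05 in limma's fit over all probe sets, where 4.73% of all probe sets were called higher and 3.37% lower. The deposited arrays of ASXL1-MT sit slightly higher as a whole. With array medians set equal, the calls among all probe sets turned from 2130 higher and 1516 lower to 1734 and 1740, and the same count of 6 member probe sets passed. Those called were 3 probe sets of Bmpr1a, 2 of Smad1 and 1 of Tgfbr2. At the level of genes, whose value is the mean of their probe sets, 1 of 10 members was called higher and 1 lower, against 6.63% and 4.75% of all genes. These 2 were Smad1 and Bmpr1a. The groups did not overlap in 7 member probe sets with ASXL1-MT above and in 11 with ASXL1-MT below, against 21.7% and 13.7% of all probe sets, and 6 of the 11 belong to Bmpr1a. Of the 10 genes, 3 lay above and 1 below without overlap, against 23.5% and 14.4% of all genes. The median difference of the 10 genes was -0.023, beside 0.11 for all genes, which was 0.027 with array medians set equal. The count of 6 called probe sets became 2, 1 and 0 without ASXL1-MT replicates 1, 2 and 3, and 1, 1 and 1 without mock replicates 1, 2 and 3. The count of 2 called genes became 1, 0 and 0 without those ASXL1-MT replicates and 1, 0 and 1 without those mock replicates, and the gene that passed in each of the 3 fits with a call was Bmpr1a.

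**Figure D1:**
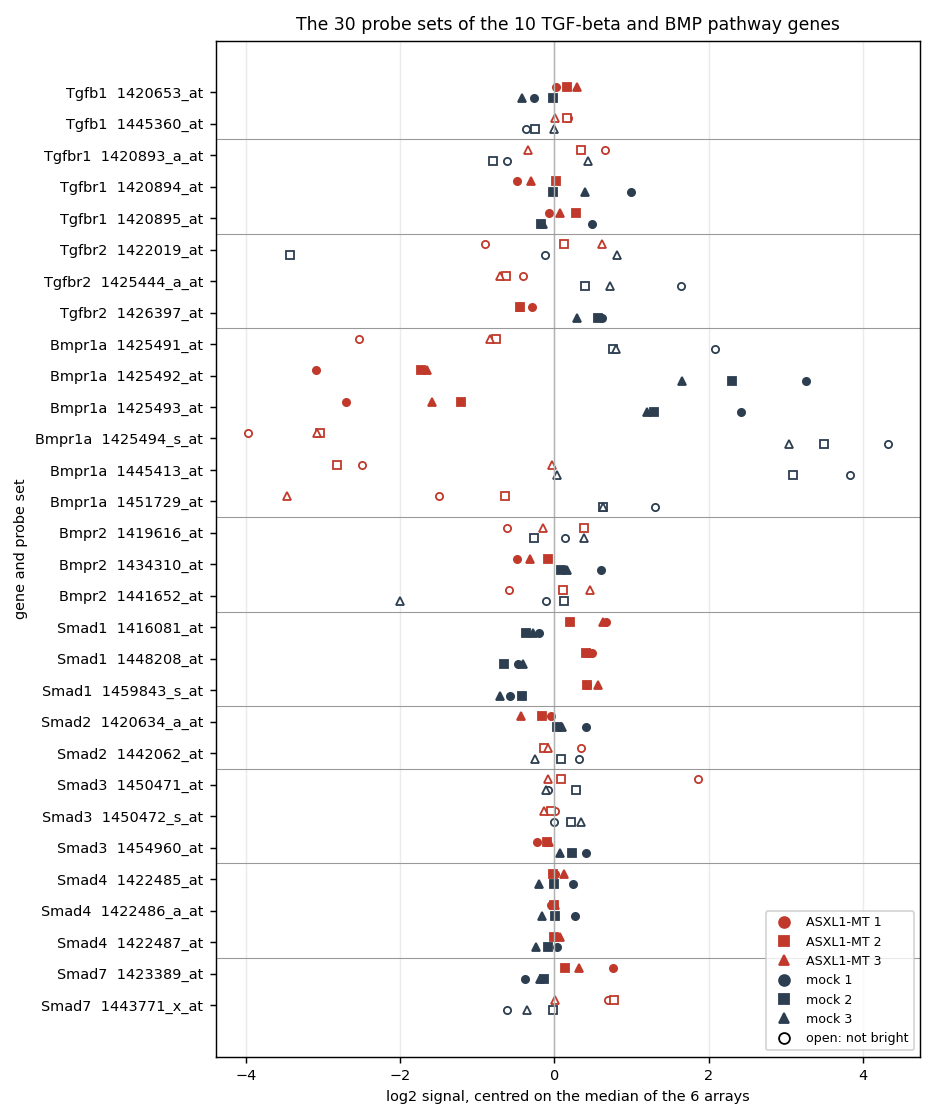
Centred log2 signal (horizontal axis) of each of the members' 30 probe sets (rows) on the 6 arrays, with ASXL1-MT in red and mock in dark blue, marker shapes for replicates 1 to 3 and filled markers for bright probe sets. The 6 rows of Bmpr1a have the largest differences between group means, all lower in ASXL1-MT. In 1445413_at, however, the nearest arrays of the groups almost touch. The Smad1 rows separate in the other direction.

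Promoters show what kind of sequence lies at the starts of these genes. RefSeq windows of assembly GRCm38.p6, from 250 bases before to 50 bases after a gene's start, matched 7 of the 10 members by symbol, with 2 starts for Tgfbr1. Smad2, Smad4 and Smad7 had no entry. Windows are printed for the genes of the called probe sets, Bmpr1a, Smad1 and Tgfbr2, 5' to 3' on the gene's strand. Capitals mark matches on either strand to CAGAC, the short box that Smad3 and Smad4 bind, or to GGCGCC, a GC-rich motif bound by Smads.
Bmpr1a, chr14:34502497-34502796, minus strand: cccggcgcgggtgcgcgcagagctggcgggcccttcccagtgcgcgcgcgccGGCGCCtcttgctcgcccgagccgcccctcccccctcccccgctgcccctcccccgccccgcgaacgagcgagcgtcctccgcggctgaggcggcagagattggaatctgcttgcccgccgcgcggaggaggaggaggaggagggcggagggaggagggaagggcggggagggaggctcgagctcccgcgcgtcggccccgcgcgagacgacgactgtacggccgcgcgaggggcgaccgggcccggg
Smad1, chr8:79399379-79399678, minus strand: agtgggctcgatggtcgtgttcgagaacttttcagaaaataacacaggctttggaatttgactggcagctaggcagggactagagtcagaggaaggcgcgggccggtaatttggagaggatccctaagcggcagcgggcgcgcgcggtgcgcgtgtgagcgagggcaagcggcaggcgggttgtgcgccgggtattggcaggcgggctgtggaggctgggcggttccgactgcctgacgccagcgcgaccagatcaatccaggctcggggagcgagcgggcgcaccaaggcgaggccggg
Tgfbr2, chr9:116175314-116175613, minus strand: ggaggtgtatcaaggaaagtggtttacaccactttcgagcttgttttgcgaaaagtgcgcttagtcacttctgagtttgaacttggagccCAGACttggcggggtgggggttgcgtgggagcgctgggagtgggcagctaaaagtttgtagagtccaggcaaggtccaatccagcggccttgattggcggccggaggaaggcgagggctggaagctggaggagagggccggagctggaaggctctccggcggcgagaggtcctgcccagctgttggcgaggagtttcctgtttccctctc
The Bmpr1a window was 79.3% G and C and held 48 CpG steps, against medians of 52.7% and 7 over all 32851 windows. Smad1 had 65.0% and 31 CpG steps, and Tgfbr2 had 59.0% and 15. GGCGCC occurred once in the Bmpr1a window and in 11.9% of all windows. CAGAC occurred once in the Tgfbr2 window and in 49.6% of all windows, and neither motif occurred in the Smad1 window. GGGCGG, the GC box, occurred 4 times at Bmpr1a, 1 time at Smad1 and 0 times at Tgfbr2, and 35.7% of all windows held it. TATAAA was found 0 times in these windows and in 13.6% of all. A match describes letters, not binding. The windows of the other members ran from 52.0% to 77.0% G and C.

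The ligand gene Tgfb1 encodes the TGF-beta that immune cells and platelets release. Its bright probe set 1420653_at read 0.018, 0.17 and 0.29 on ASXL1-MT replicates 1, 2 and 3, against -0.26, -0.018 and -0.42 on mock replicates 1, 2 and 3. ASXL1-MT was higher without overlap, though ASXL1-MT replicate 1 and mock replicate 2 nearly touched. The other probe set, 1445360_at, differed by 0.32 (SE 0.17), close to the 0.39 (SE 0.18) of the bright one. The gene's difference of 0.36 was 0.28 with array medians set equal and 0.23 after cyclic loess. It thus kept its direction and shrank with the scaling.

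Tgfbr2 is the type II kinase that binds TGF-beta first. Its bright probe set 1426397_at read -0.29, -0.44 and -0.45 in ASXL1-MT marrow against 0.62, 0.57 and 0.29 in mock, a difference of -0.89 (SE 0.16) with tight replicates. Probe set 1425444_a_at, not bright, pointed the same way, with a difference of -1.50 (SE 0.36) and no overlap. The third, 1422019_at, was not bright and spread widely, with -0.90, 0.12 and 0.61 in ASXL1-MT marrow against -0.12, -3.43 and 0.81 in mock. Its difference of 0.86 (SE 1.19) rested on mock replicate 2 and became -0.40 without it. The mean of the 3 probe sets gave the gene a difference of -0.51 (SE 0.45), which was -1.0 without mock replicate 2, -0.24 without mock replicate 1 and -0.29 without mock replicate 3. The median of the probe sets gave -1.01.

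Tgfbr1, the type I partner of Tgfbr2, showed no common direction among its 3 probe sets, which share 1 source sequence. Their differences were -0.71 (SE 0.31) and 0.038 (SE 0.24) for the bright 1420894_at and 1420895_at, and 0.54 (SE 0.44) for 1420893_a_at. The first read -0.49, 0.023 and -0.30 in ASXL1-MT marrow against 1.00, -0.023 and 0.40 in mock. The groups overlapped in all 3. Mock replicate 1 was the highest array in both bright probe sets. The gene's difference was -0.044 (SE 0.23), and its sign changed with the array left out, from -0.24 to 0.069.

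Bmpr1a had 6 probe sets, and in each of them every ASXL1-MT array lay below every mock array. Of these, 5 were designed on the same source sequence, so they are not separate measurements of the gene. The widest split was in 1425494_s_at, which read -3.98, -3.04 and -3.08 in ASXL1-MT marrow against 4.33, 3.49 and 3.04 in mock. Its difference of -6.99 (SE 0.44) corresponds to 127-fold. That probe set was not called bright, so how far its signal stood above background is not known, and the size of its fold is uncertain. The rounding rule can also miss a bright probe set whose groups lie far apart.

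The 2 bright probe sets of Bmpr1a passed that rule through the mock arrays, which hold their 3 highest values, so how far the ASXL1-MT signal stood above background is not known for them either. In 1425492_at the ASXL1-MT arrays read -3.09, -1.73 and -1.65 and the mock arrays 3.26, 2.30 and 1.65, a difference of -4.56 (SE 0.59). In 1425493_at they were -2.70, -1.21 and -1.58 against 2.42, 1.29 and 1.21, a difference of -3.47 (SE 0.53). Both differences were wider than the spread of the replicates, whose SDs ran from 0.68 to 0.81. The remaining probe sets, 1425491_at, 1451729_at and 1445413_at, differed by -2.59 (SE 0.64), -2.72 (SE 0.76) and -4.10 (SE 1.27). In 1445413_at, the only one designed on another sequence, ASXL1-MT replicate 3 at -0.033 and mock replicate 3 at 0.033 were almost equal.

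As a gene, Bmpr1a read -2.71, -1.70 and -1.77 in ASXL1-MT marrow against 2.87, 1.93 and 1.23 in mock. The means were -2.06 ± 0.57 and 2.01 ± 0.83 (SD, n = 3). That corresponds to 16.8-fold, a size that is uncertain, since the level of the ASXL1-MT signal is not known and 4 of the 6 probe sets were not bright. Within each group the arrays differed too. Mock replicate 1 was the highest array in all 6 probe sets, and ASXL1-MT replicate 1 was the lowest in 4 of 6. Leaving out 1 array moved the gene's difference between -4.46 and -3.64, and the scalings of the arrays between -4.17 and -4.07. Bright probe sets alone gave -4.02, and 1425494_s_at, which had the smallest spread, gave -6.99. In bulk samples like these, fewer cells of a type and less RNA per cell cannot be told apart.

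Markers of several blood cell types moved between the groups beside Bmpr1a. A marker is counted here as higher or lower when past an adjusted p of 0.05 in limma's fit over all genes. That fit called 6.63% of all genes higher and 4.75% lower. The marker lists were chosen with earlier results of these data known, so their counts are a description. Of 9 measured mature neutrophil markers, 7 were lower and 0 higher, and the mean of the list lay between -1.16 and -0.86 in ASXL1-MT and between 0.71 and 0.84 in mock. Of 10 megakaryocyte markers 5 were lower and 0 higher (-1.09 to -0.52 against 0.17 to 1.08), and of 10 eosinophil, basophil and mast cell markers 3 were lower and 0 higher (-1.07 to -0.63 against 0.33 to 1.38). All 10 dendritic cell markers were higher (1.07 to 1.20 against -1.88 to -1.02), as were 4 of 10 stem and progenitor markers, with 1 lower (0.0012 to 0.27 against -0.70 to -0.21). The calls among T and NK, B, erythroid, stromal and monocyte markers were 2, 2, 1, 3 and 1 higher and 1, 0, 0, 1 and 1 lower, of 9, 7, 7, 11 and 11 measured. Their means lay from -0.47 to 0.40, -0.21 to -0.11, 0.17 to 1.48, -0.12 to 0.34 and -0.14 to 0.060 in ASXL1-MT. In mock they lay from -1.42 to 0.63, -0.44 to 0.53, -1.01 to -0.25, -0.99 to -0.36 and -0.93 to 0.062. The median differences of these lists, in the same order, were -0.045, -0.47, 0.65, 0.51 and 0.32. The part of these cell types in the members' differences was not tested. The source label names the depletion for mock alone, though the series text gives it for both groups. If the groups did differ in depletion, that cannot be told apart here from their other differences. Bright probe sets were present for 8 of 9 neutrophil markers and for 8 of 11 monocyte and macrophage markers, the defining genes of the labelled myeloid cells. Whether a marker was at 0 cannot be read from centred values. Asxl1 itself differed by -0.097 (SE 0.12), and the labels do not say whether its probe sets detect the introduced sequence.

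Bmpr2, the type II partner of Bmpr1a, showed no such split. Its bright probe set 1434310_at read -0.49, -0.082 and -0.31 in ASXL1-MT marrow against 0.60, 0.082 and 0.16 in mock, a difference of -0.57 (SE 0.22) without overlap. The other 2 probe sets overlapped, with differences of -0.22 (SE 0.32) for 1419616_at and 0.65 (SE 0.66) for 1441652_at. In the latter mock replicate 3 stood at -2.01, and the difference without it was -0.018. The gene's difference was -0.045 (SE 0.28). It changed sign with the array left out, from -0.24 to 0.17, and the median of the probe sets gave -0.34.

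**Figure D2:**
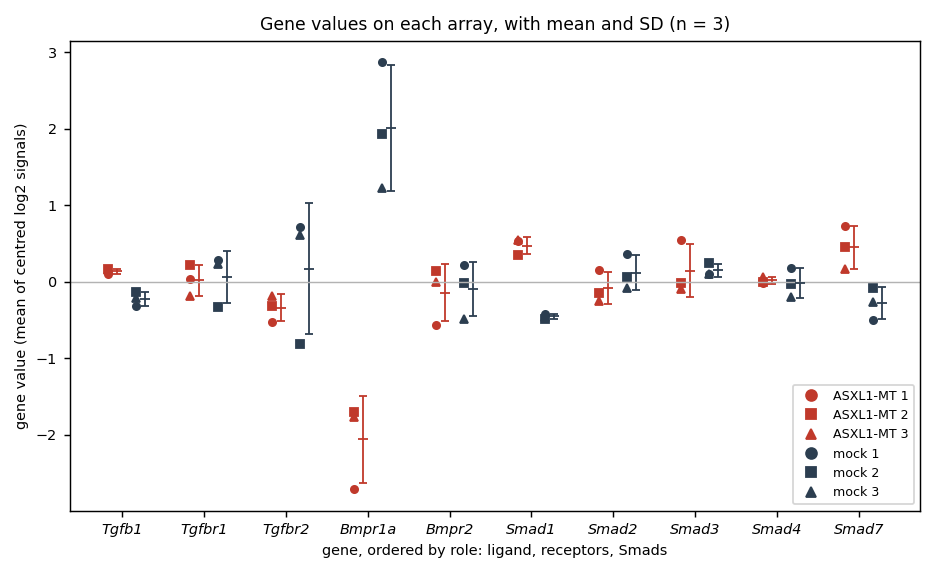
Gene value on each array (vertical axis, mean of the centred log2 signals of the gene's probe sets) for the 10 members in the order of their roles, with ASXL1-MT in red, mock in dark blue and bars for the mean ± SD of 3 arrays. Bmpr1a spans from -2.71 to 2.87, while all other genes stay between -0.82 and 0.72.

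Smad1, the receptor-regulated Smad of the BMP branch, had 3 probe sets, all bright and close to each other, 2 of them designed on 1 source sequence. In 1459843_s_at it read 0.43, 0.42 and 0.56 in ASXL1-MT marrow against -0.57, -0.42 and -0.71 in mock, a difference of 1.04 (SE 0.15). In 1448208_at the difference was 0.96 (SE 0.15) and in 1416081_at 0.79 (SE 0.19), and the groups did not overlap in any of the 3. The gene read 0.53, 0.34 and 0.55 against -0.42, -0.48 and -0.47. The means were 0.47 ± 0.11 and -0.46 ± 0.034 (SD, n = 3), which corresponds to a 1.90-fold difference. Its difference was 0.85 with array medians set equal and 0.81 after cyclic loess, and leaving out 1 array moved it between 0.89 and 0.99. The same cell type markers moved beside it, with their part not tested.

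Smad2 and Smad3, which carry the TGF-beta signal, differed less. The bright probe set of Smad2, 1420634_a_at, read -0.039, -0.16 and -0.43 in ASXL1-MT marrow against 0.41, 0.039 and 0.093 in mock, a difference of -0.39 (SE 0.19). The bright probe set of Smad3, 1454960_at, read -0.23, -0.098 and -0.067 against 0.40, 0.22 and 0.067, a difference of -0.36 (SE 0.16). In both, ASXL1-MT was lower without overlap and the nearest arrays were close. The other probe sets of both genes overlapped. Smad2's 1442062_at differed by -0.0084 (SE 0.23). Among Smad3's, 1450471_at stood at 1.86 in ASXL1-MT replicate 1 alone, and its difference of 0.59 was -0.029 without that array. The third probe set, 1450472_s_at, differed by -0.24 (SE 0.16). The gene values differed by -0.20 (SE 0.19) for Smad2 and -0.0025 (SE 0.21) for Smad3, and the latter was -0.36 on its bright probe set alone. Leaving out 1 array moved Smad2 between -0.32 and -0.074, and Smad3 between -0.20 and 0.12 with a change of sign.

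Smad4, the partner shared by both branches, had the values closest together. Its 3 probe sets were all bright and came from 1 source sequence, with differences of 0.024 (SE 0.17), -0.050 (SE 0.17) and 0.12 (SE 0.15) for 1422485_at, 1422486_a_at and 1422487_at. The ASXL1-MT arrays read -0.011, -0.0071 and 0.067 as a gene, inside the mock range of -0.20 to 0.18. The gene's difference was 0.033 (SE 0.15), smaller than its SE, and equal array medians gave -0.049, a step that shifts every gene alike.

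Smad7, the inhibitory Smad, was higher on both of its probe sets without overlap. The bright 1423389_at read 0.75, 0.14 and 0.31 in ASXL1-MT marrow against -0.37, -0.14 and -0.19 in mock, a difference of 0.64 (SE 0.21). The other, 1443771_x_at, differed by 0.82 (SE 0.29), with ASXL1-MT replicate 3 at 0.014 and mock replicate 2 at -0.014. Probe sets with that suffix may also detect related transcripts. The gene means were 0.45 ± 0.28 and -0.28 ± 0.21 (SD, n = 3). Their difference of 0.73 lay between 0.59 and 0.87 when 1 array was left out and was 0.64 after cyclic loess.

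Genes of the pathway outside the 10 members were taken from a textbook list of 86, of which 82 were measured. In limma's fit over all genes with Benjamini-Hochberg adjustment, 4 rose and 7 fell, or 13.4%, against 11.4% of all genes. Without adjustment, at p under 0.05, it was 13 up and 13 down, or 15.9% each, against 18.1% up and 10.9% down of all genes. Their median difference was -0.15. The count of 11 became 9, 4 and 0 without ASXL1-MT replicates 1, 2 and 3, and 5, 3 and 5 without mock replicates 1, 2 and 3. With 1 array fewer the calls among all genes also went from 2072 to between 192 and 1033, so a call lost in such a fit does not by itself show a smaller difference.

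Among 10 other receptors 1 passed. Acvrl1, a type I receptor found mainly on endothelium that binds BMP ligands, read -1.01, -0.79 and -1.20 in ASXL1-MT marrow against 1.68, 1.07 and 0.70. It fell by 2.15 (SE 0.29, adjusted p = 0.017 by limma). Both of its probe sets passed, at -2.42 and -1.87, and 2 of the 6 fits that leave out 1 array kept the call. The remaining type I BMP receptors missed the threshold, and they are named with their values known. They differed by 1.63 (SE 0.49) for Bmpr1b and 0.74 (SE 0.37) for Acvr1.

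Of the 3 other Smads, Smad5, the closest relative of Smad1, read 0.61, 0.35 and 0.55 in ASXL1-MT marrow against -0.48, -0.29 and -0.62. It rose by 0.96 (SE 0.16, adjusted p = 0.0243 by limma). Its 3 bright probe sets disagreed. Differences were 1.85 for 1433641_at and 1.22 for 1421047_at, which passed, and -0.18 for 1451873_a_at, which did not. The difference stayed between 0.89 and 1.05 when 1 array was left out, and 0 of those 6 fits kept the call. Smad9 and Smad6 did not pass, with differences of 1.55 (SE 0.78) and 1.33 (SE 0.44).

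Of 12 other ligands 1 rose and 1 fell. Gdf3 fell by 2.22 (SE 0.23, adjusted p = 0.0117 by limma) on 2 probe sets that were not bright, and 5 of the 6 fits that leave out 1 array kept the call. Inhbb, a subunit of activins and inhibins, rose by 1.23 (SE 0.22, adjusted p = 0.0281 by limma). However, neither of its probe sets was bright or passed alone, and 0 of 6 such fits kept the call. Among 8 antagonists 2 fell and 0 rose. These were Lefty1, which blocks Nodal signals, at -2.97 (SE 0.29, adjusted p = 0.0105 by limma) and the BMP antagonist Nog, noggin, at -0.96 (SE 0.19, adjusted p = 0.0359 by limma). Each has 1 probe set, neither bright, and their calls were kept in 5 and 1 of 6 such fits.

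Of 9 genes of latency and activation 1 fell, Furin, the protease that cleaves the TGF-beta precursor. It differed by -0.80 (SE 0.16, adjusted p = 0.0365 by limma), with 0 of 6 such fits keeping the call. Its only probe set, a bright one, missed the threshold of the fit over probe sets (adjusted p = 0.0513 by limma). Of 15 adaptors and turnover genes 1 fell, Smurf1, a ubiquitin ligase that acts on Smad1 and Smad5, at -1.78 (SE 0.25, adjusted p = 0.0184 by limma). Its probe sets split, with -3.58 for 1428396_at and 0.014 for 1428395_at, neither bright, and 2 of 6 such fits kept the call. Of 11 nuclear partners 1 fell, Skil, a repressor of Smad transcription that TGF-beta itself induces. It differed by -1.35 (SE 0.19, adjusted p = 0.0184 by limma), and both probe sets passed, at -1.41 and -1.30, while 1 of 6 such fits kept the call.

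Of 14 measured target genes 2 rose and 0 fell past the threshold, while the median difference of the list was -0.34. Without adjustment, p was under 0.05 for 2 genes up and 4 genes down. The latter were Id3, Klf10 at -0.83 (SE 0.23), Cdkn1a at -1.37 (SE 0.46) and Cdkn2b at -1.71 (SE 0.64), named with their values known. Ccn2, also called Ctgf, a matrix protein induced by TGF-beta, read 1.31, 1.08 and 1.05 in ASXL1-MT marrow against -1.05, -2.03 and -1.46. It rose by 2.66 (SE 0.28, adjusted p = 0.0119 by limma). Its only probe set was not bright, and 5 of 6 such fits kept the call. Id2, an inhibitor of helix-loop-helix factors that responds to BMP, rose by 0.77 (SE 0.13, adjusted p = 0.0253 by limma). Its 3 bright probe sets all pointed up, 1 of them past the threshold alone, and 0 of 6 such fits kept the call. The related BMP targets Id1 and Id3, also named with their values known, missed the threshold, at -0.42 (SE 0.28) and -5.46 (SE 1.36, adjusted p = 0.0625 by limma). Id3 read -1.0, -5.03 and -6.12 in ASXL1-MT marrow against 1.40, 1.83 and 1.0 in mock, with no overlap and a wide spread within ASXL1-MT. The Id genes thus had no common direction.

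**Figure D3:**
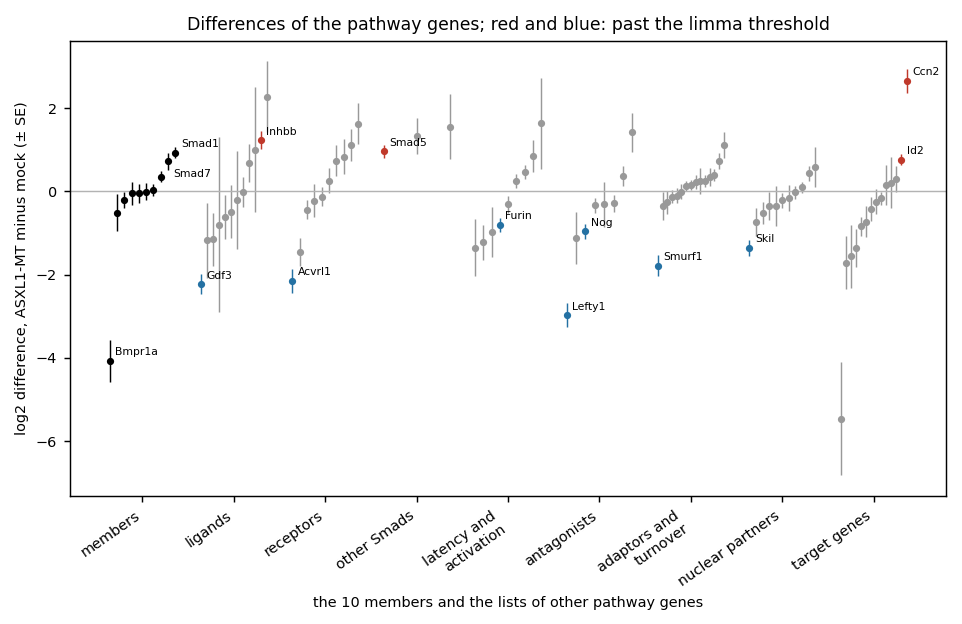
Difference of each gene (vertical axis, log2, ASXL1-MT minus mock, bars for the SE) for the 10 members in black and for the 82 other pathway genes by list, with red for genes higher and blue for genes lower past the limma threshold and grey for the rest. Members are plotted without a call. The called genes are spread over all 8 lists, 4 up and 7 down.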

How the data were processed

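RNA of the 6 marrow samples was hybridised to Affymetrix mouse expression arrays, per the series text. The authors captured signals with MAS5, per the submitters' processing notes. The deposited table holds log values for 45037 probe sets, taken as log2. Its row medians are 0 to within 5e-07, and no source used here states the log base, scaling or centring. Whole-table medians of the arrays ran from -0.053 to 0.050, higher in ASXL1-MT. Symbols came from the platform annotation (1 symbol for 34945 probe sets, several for 932, none here for 9160), and 34741 of the first kind matched RefSeq by gene ID.

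Probe sets with 1 symbol were averaged to a value per gene. All probe sets, and all genes, were fitted with lmFit and eBayes (limma 3.58.1, R 4.3.3) on group, two-sided, with Benjamini-Hochberg adjustment at 0.05. The fit was tested on simulated data with large changes in probe sets of below-median spread. That test does not cover smaller changes or noisier probe sets. Bright means that the 3 highest values lie on the step of 20 binary places of single-precision logs of 8 and above, which held for 17205 probe sets (38.2%). Members and lists were chosen with earlier results of these data known. The list of other pathway genes left out Thbs1 and Cdkn1c, whose values were known. Of the 86 listed genes, 4 were not analysed here. Named were all members and, from each list, up to 4 called genes with the largest difference. Alternatives were array scalings, variance settings, bright probe sets, other summaries of a gene, a replicate block and leaving out each array.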

Additional observations from a re-analysis of the deposited data

How the results depend on the processing

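Calls depended on the number of arrays and on the filter more than on scaling. Quantile normalization, cyclic loess and equal array medians left 6 member probe sets and 2 member genes past the threshold and gave 12 other pathway genes. Of all calls among probe sets, 58.4% were higher as deposited, against 47.9% after quantile normalization and 46.2% after loess, and among genes 58.3% against 47.6% and 46.6%. The median shift of all probe sets was 0.11 as deposited and 0.024 with equal medians.

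Trend and robust settings gave 5816 probe sets instead of 3646. Bright probe sets alone gave 6778 probe sets and 4128 genes (43.8% of 9421) instead of 2072. That filter also called 6 of the 10 member genes and 17 other pathway genes. Other pathway genes without a bright probe set left that fit, so the 17 are not out of 82. Both counts belong beside the 43.8% called among all genes with a bright probe set. Where the groups did not overlap, a probe set passed the filter through its higher group alone, so these calls support nothing about the members. The probe set of smallest spread gave 3898 genes (21.4% of all genes), 3 member genes and 20 of the 82 other pathway genes. With it Smurf1 turned to 0.014 (adjusted p = 0.949 by limma). With an array left out the counts ran from 66 to 1142 probe sets, 192 to 1033 genes, 0 to 2 member probe sets, 0 to 1 member genes and 0 to 9 other pathway genes.

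Over all probe sets, same-numbered arrays did not deviate together, with correlations from -0.012 to -0.0088. The less precise probe sets weigh most in these correlations, so they cannot exclude a pairing that shows in the bright ones. The fit with a replicate block called 0 probe sets, 0 genes, 0 member probe sets, 0 member genes and 0 other pathway genes. That fit has fewer degrees of freedom to estimate the scatter and leaves each difference unchanged. A call lost in it therefore does not show a smaller difference.

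The variance settings and the replicate block leave a difference unchanged and are not counted here. Of 120 other alternative values of member genes, 109 moved by less than 1 SD and 11 by more, and of 286 for member probe sets 283 and 3. Some of these could not move either, such as the bright filter applied to a bright probe set. Leaving out 1 of 3 arrays of a group cannot move a difference by 1 SD within groups, so those values do not test stability. Leaving out an array changed the sign of 4 of 10 member genes and 8 of 30 member probe sets. For the named other pathway genes, a comparison added after seeing the data, 60 of 148 alternatives lost the call and 1 reversed. Probe sets not called bright limit what can be said of Gdf3, Lefty1, Nog, Inhbb, Smurf1 and Ccn2. The rounding rule can miss a bright probe set whose groups lie far apart, so their signal level is not known.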
